A study of Mus musculus with 12 samples.

Results

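The primary (azurophil) granule genes Elane, Prtn3, Mpo, Ctsg, Lyz2 and Ms4a3 were measured in mouse haematopoietic progenitor cells. Probe sets that the platform annotation gives to exactly 1 of these symbols were taken, which gave 1 probe set for each gene and 6 genes of 18193 measured. Expression was profiled on 12 arrays (Affymetrix MOE430 2.0) from KSL cells, isolated from bone marrow as lineage-negative cells with c-Kit and Sca-1 on their surface, a fraction that holds stem cells and early progenitors. Donor mice were 2 to 4 months old and either labelled Fancc-/- or wild type. Every culture held 10% serum and 4 growth factors, namely stem cell factor at 10 ng/ml, Flt3 ligand at 50 ng/ml, IL-11 at 10 ng/ml and IL-6 at 20 ng/ml, and 5 to 15 ng of RNA was amplified per array. Treated cultures also held the inflammatory cytokine TNF at 10 ng/ml, from plating to RNA harvest 24 h later. The 4 groups of 3 arrays were thus Fancc-/- with TNF, Fancc-/- without TNF, wild type with TNF and wild type without TNF, and all 4 received the same growth factors.

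Primary granules form first as a granulocyte progenitor matures, at the promyelocyte stage, and carry enzymes that the neutrophil later releases into phagosomes. Elane, Prtn3 and Ctsg encode neutrophil elastase, proteinase 3 and cathepsin G, serine proteases of one family that are made as inactive precursors and trimmed by cathepsin C. Mpo encodes myeloperoxidase, the haem enzyme that makes hypochlorous acid from hydrogen peroxide and chloride. Lyz2 encodes lysozyme M, which cuts bacterial cell walls, and is also a gene of later neutrophil granules, monocytes and macrophages. Ms4a3 encodes a membrane protein of granulocyte and monocyte progenitors and is not an enzyme. These genes are commonly read as a sign that progenitors have entered the granulocyte and monocyte path.

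All values are on the log2 scale as normalized by the authors, and a fall of 1 on that scale is a lower signal by a factor of 2. Differences were tested with limma over all 18193 genes, and a gene is called changed where its adjusted p, by the Benjamini-Hochberg method, lay under 0.05. Separate mice are not stated for the replicates, and the p-values thus reflect only how far these samples spread, part of which may be technical. In bulk RNA, fewer cells of a type and less RNA per cell cannot be told apart, which holds for every fall below. Progenitor markers were present on all arrays, with Kit between 9.95 and 10.77, Cd34 between 12.81 and 13.13 and Flt3 between 11.44 and 12.15, and Ly6a, which encodes Sca-1, was not used here. The lineage markers Cd3e, Cd8a and Itgam read at most 3.69, 5.76 and 6.08. These dim markers do not show that lineage-committed cells were absent, since other myeloid genes ranged from dim to bright. Without TNF, S100a8 read 12.84 to 13.32 on the arrays labelled Fancc-/- and 12.72 to 12.97 in wild type. Ccr2 read 12.51 to 12.60 and 12.47 to 12.63 there. Fancc, the targeted gene, read 8.73 to 9.16 on the arrays labelled Fancc-/- and 8.22 to 8.65 on the wild-type arrays, so the arrays labelled mutant did not show less of it, and genotype is given as labelled throughout. These values are of the brightest of 3 Fancc probe sets. The others also stood higher on the arrays labelled Fancc-/-, by 0.41 and 0.58 without TNF and by 0.19 and 0.40 with TNF, and did not pass. Whether these probe sets lie outside the disrupted part of the gene, where they would check nothing, is not known here. The female transcript Xist and the Y-linked Eif2s3y differed between replicates. Xist read 12.21 to 12.61 with TNF on the arrays labelled Fancc-/-, against 5.12, 12.73 and 12.04 without TNF. In wild type it read 12.47 to 13.08 with TNF, against 5.47, 5.06 and 12.53 without TNF. Eif2s3y read 4.16 on untreated replicate 2 labelled Fancc-/- and 3.79 on TNF-treated wild-type replicate 3. Donor sex thus differed within those groups and within untreated wild type, and it cannot be fully told apart from TNF. Signal from both genes lay on 7 of 12 arrays. Among those labelled Fancc-/- these were 3 with TNF and 1 without TNF, and among wild type 2 with TNF and 1 without TNF.

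With TNF, Elane fell 11.6-fold and Prtn3 2.31-fold in the average of the genotypes, and both fell in each genotype alone. Ctsg, Mpo and Ms4a3 fell 1.77- to 1.995-fold in the average. Lyz2 stood 0.51 higher on the log2 scale and did not pass. Averaged over genotype, 5 of the 6 genes fell and 0 rose, against a background of 6.32% of all genes called lower, 5.81% called higher and 12.1% called in either direction. Within each genotype 2 of 6 passed, Elane and Prtn3, both lower, and 5 of 6 had an unadjusted p under 0.05. Such an unadjusted p was held by 3106 of all 18193 genes on the arrays labelled Fancc-/- and by 3236 in wild type. Of all genes, 1.86% were called lower and 2.45% higher on the arrays labelled Fancc-/-, 4.31% in all. In wild type 2.33% were called lower and 2.69% higher, 5.02% in all.

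**Figure D1:**
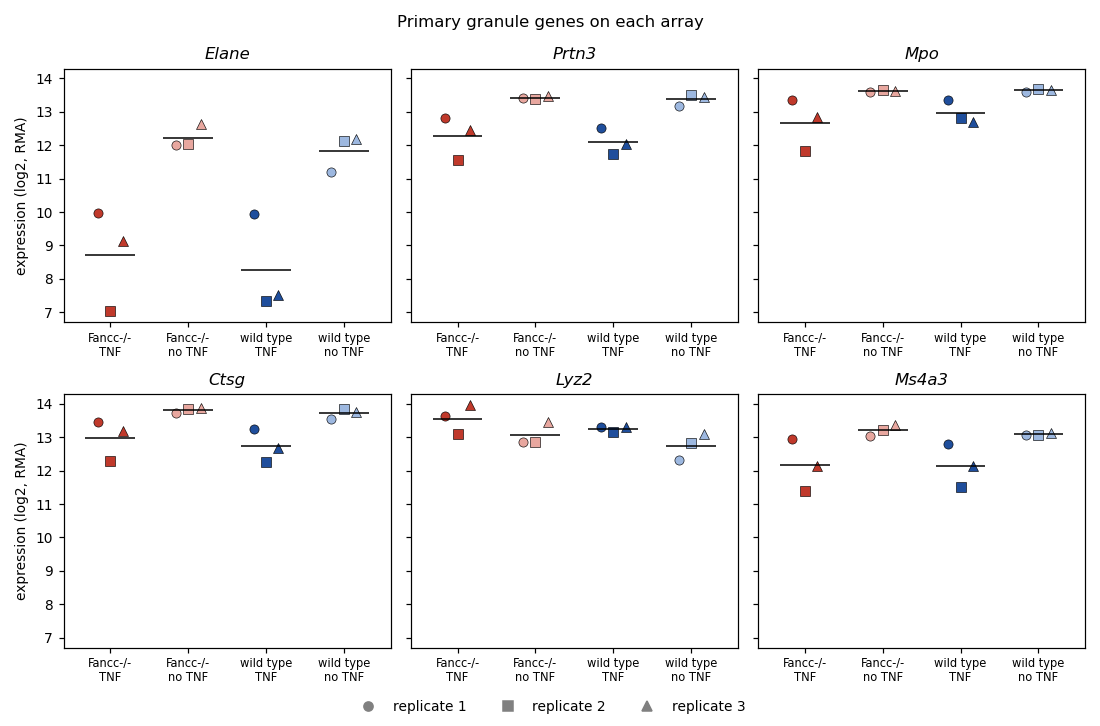
Expression (log2, RMA) of each primary granule gene on all 12 arrays, by group, with replicates 1, 2 and 3 as circles, squares and triangles and a bar at the group mean. Every gene but Lyz2 is lower on each TNF array than on each untreated array of the same genotype, and the TNF arrays of those 5 genes are spread more widely than the untreated ones.

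Elane, neutrophil elastase, read 9.97, 7.05 and 9.13 on the TNF arrays labelled Fancc-/-, against 12.001, 12.03 and 12.62 on the untreated ones. In wild type it read 9.94, 7.33 and 7.52 with TNF, against 11.20, 12.12 and 12.20 without TNF. No TNF array overlapped an untreated one in either genotype, and replicate 1 of each genotype kept the highest Elane signal under TNF. The log2 change was -3.50 on the arrays labelled Fancc-/- (SE 0.77, limma adjusted p = 0.029) and -3.58 in wild type (SE 0.77, limma adjusted p = 0.0241), with 3 arrays per group. Averaged over genotype Elane changed by -3.54 (SE 0.55, 95% interval -4.75 to -2.33, limma adjusted p = 0.00178), which is 11.6-fold lower and ranks 5 from the lowest of 18193 genes.

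Prtn3, proteinase 3, lies next to Elane on chromosome 10. It read 12.80, 11.56 and 12.46 with TNF on the arrays labelled Fancc-/-, against 13.40, 13.38 and 13.48 without TNF, and 12.51, 11.75 and 12.04 with TNF in wild type, against 13.17, 13.49 and 13.45 without TNF. The groups did not overlap in either genotype, and the untreated arrays lay within 0.33 of each other. The change was -1.15 on the arrays labelled Fancc-/- (SE 0.28, limma adjusted p = 0.0427), -1.27 in wild type (SE 0.28, limma adjusted p = 0.0245) and -1.21 in the average (SE 0.20, 95% interval -1.64 to -0.78, limma adjusted p = 0.0023), a signal 2.31-fold lower. The brightest Prtn3 value lay 1.45 below the highest value of any probe set, and the brightest Elane value 2.32 below it. Whether brightness limited the measured size of a change was not tested.

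Elane and Prtn3 are shown here with Lyz2 because they are the pair that passed in both genotypes and Lyz2 is the gene of opposite sign. The sequences are the 250 bases before each annotated start, from RefSeq on GRCm38.p6, read 5′ to 3′ on the gene's strand, at chr10:79886062-79886311 (plus strand) for Elane, chr10:79879417-79879666 (plus strand) for Prtn3 and chr10:117282273-117282522 (minus strand) for Lyz2. Capitals mark AGGAAGT, a core of sites for the ETS factor PU.1, on either strand, and AACGG, a core of sites for MYB, on either strand, and these motifs were picked with the sequences in view.
Elane: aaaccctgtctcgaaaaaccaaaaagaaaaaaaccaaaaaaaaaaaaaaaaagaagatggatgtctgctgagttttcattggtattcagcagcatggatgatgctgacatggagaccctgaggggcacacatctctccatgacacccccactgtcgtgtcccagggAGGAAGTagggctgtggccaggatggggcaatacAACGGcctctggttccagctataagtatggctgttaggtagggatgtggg
Prtn3: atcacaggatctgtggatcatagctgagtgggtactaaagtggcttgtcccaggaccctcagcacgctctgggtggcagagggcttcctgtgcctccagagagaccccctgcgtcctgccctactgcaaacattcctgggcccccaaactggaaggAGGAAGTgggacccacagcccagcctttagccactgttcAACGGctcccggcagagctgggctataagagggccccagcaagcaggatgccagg
Lyz2: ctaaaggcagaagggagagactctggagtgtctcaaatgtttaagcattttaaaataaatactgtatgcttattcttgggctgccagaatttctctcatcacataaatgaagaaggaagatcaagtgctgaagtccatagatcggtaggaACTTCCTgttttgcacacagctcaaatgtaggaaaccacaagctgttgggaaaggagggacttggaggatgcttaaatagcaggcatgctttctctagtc

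The upstream windows of Elane and Prtn3 carried the same motifs in the same order. AGGAAGT began 84 bases before the Elane start and 94 before the Prtn3 start, AACGG began 50 and 55 bases before, and TATAA, present in 22.8% of windows on either strand, 31 and 32 bases before, and none of the 3 overlaps another. Among 32851 windows of this length, 1.07% held both the PU.1 and the MYB letters. Because the motifs were picked with these sequences in view, that share does not measure how unusual the match is. The PU.1 letters lay in 7.7% of windows and in those of 5 of the 6 genes, all but Ms4a3, and in Lyz2 they lie on the opposite strand (capitals above), so they are shared by genes that fell and by the one that did not. The MYB letters lay in 14.5% of windows and, among these 6 genes, in those of Elane and Prtn3. Motifs were counted on both strands. The C/EBP motif TTGCNNAA lay in 9.6% of windows and in 0 of these 6. A match is a run of letters and not a binding site.

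Ctsg, cathepsin G, read 13.46, 12.27 and 13.18 with TNF on the arrays labelled Fancc-/-, against 13.74, 13.84 and 13.88 without TNF. In wild type it read 13.23, 12.26 and 12.69 with TNF, against 13.55, 13.83 and 13.77 without TNF. The groups again did not overlap in either genotype. The changes of -0.85 on the arrays labelled Fancc-/- (limma adjusted p = 0.15) and -0.99 in wild type (limma adjusted p = 0.0862) did not pass, whereas the average of -0.92 did (SE 0.20, limma adjusted p = 0.0143), 1.89-fold lower.

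Mpo, myeloperoxidase, read 13.34, 11.83 and 12.85 with TNF on the arrays labelled Fancc-/-, against 13.60, 13.66 and 13.61 without TNF. In wild type it read 13.36, 12.80 and 12.69 with TNF, against 13.59, 13.69 and 13.64 without TNF. The untreated arrays agreed to within 0.11 in each genotype while the TNF arrays spread over 1.51 and 0.67. The change was -0.95 on the arrays labelled Fancc-/- (limma adjusted p = 0.127) and -0.69 in wild type (limma adjusted p = 0.271), neither past the threshold, and -0.82 in the average, which passed (SE 0.22, limma adjusted p = 0.0319, 1.77-fold lower).

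Ms4a3, the progenitor membrane protein, also fell in the average. It read 12.94, 11.38 and 12.14 with TNF on the arrays labelled Fancc-/-, against 13.05, 13.20 and 13.37 without TNF, and 12.79, 11.52 and 12.13 with TNF in wild type, against 13.06, 13.08 and 13.13 without TNF. Replicate 1 of each genotype lay only just below the untreated arrays, by 0.27 on the array labelled Fancc-/- and 0.30 in wild type relative to the untreated mean. The change was -1.05 on the arrays labelled Fancc-/- (limma adjusted p = 0.156), -0.94 in wild type (limma adjusted p = 0.197) and -0.996 in the average, where it passed (SE 0.26, limma adjusted p = 0.0286).

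Lyz2, lysozyme M, differed from the other genes in sign. It read 13.64, 13.09 and 13.95 with TNF on the arrays labelled Fancc-/-, against 12.85, 12.85 and 13.47 without TNF, so those groups overlapped. In wild type it read 13.31, 13.15 and 13.32 with TNF, against 12.33, 12.82 and 13.10 without TNF, with no overlap. The difference was 0.50 on the arrays labelled Fancc-/- (limma adjusted p = 0.351), 0.51 in wild type (limma adjusted p = 0.326) and 0.51 in the average (SE 0.18, 95% interval 0.11 to 0.90, limma adjusted p = 0.096), and none of the 3 passed. Without TNF-treated replicate 2 labelled Fancc-/- the average was 0.62 and passed (limma adjusted p = 0.0386). It was smaller, at 0.26, with Xist and Eif2s3y as covariates and did not pass (limma adjusted p = 0.56). Among the 7 arrays that showed both of those transcripts, which leave 1 untreated array per genotype, the Lyz2 average was 0.11. Lyz1, the neighbouring and nearly identical lysozyme P gene, has 3 probe sets of its own, of which 2 carry the suffix that marks probes shared with other transcripts, so lysozyme signal cannot be assigned to one gene with certainty. In the average these 3 stood 0.32, 0.43 and 0.25 higher with TNF, and none passed over all 45037 probe sets (limma adjusted p = 0.0938, 0.0545 and 0.0587). The last of them, the one without that suffix, was dim at 4.77 to 5.41, below the median of all values (6.02). The other 2 read 12.23 to 13.68.

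In all, 5 of 6 genes had TNF arrays wholly below the untreated arrays on the arrays labelled Fancc-/-, where this held for 15.8% of all genes, and the same 5 did in wild type, where it held for 11.7%. Lyz2 in wild type lay wholly above, as did 8.87% of genes, and 0 of the 6 did on the arrays labelled Fancc-/-, where 10.4% of genes did. The median log2 change of the 6 genes was -1.002 on the arrays labelled Fancc-/-, -0.96 in wild type and -0.96 in the average, against -0.034, -0.032 and -0.035 over all genes.

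**Figure D2:**
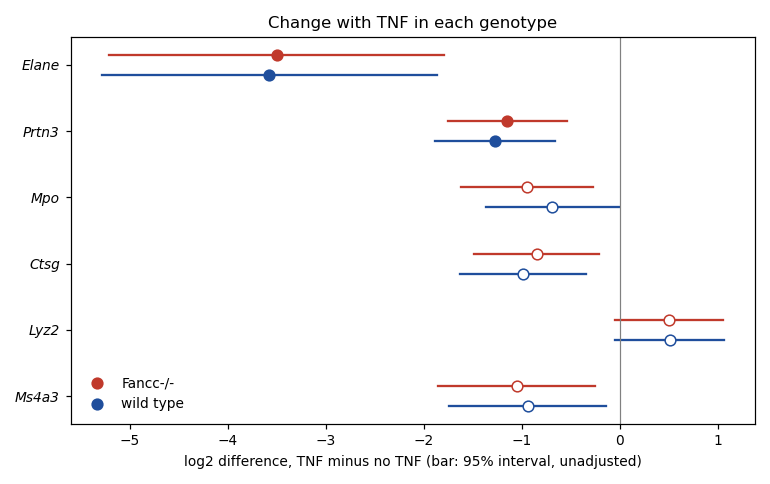
Log2 difference, TNF minus no TNF, of each primary granule gene in cells labelled Fancc-/- (red, upper) and in wild type (blue, lower), with unadjusted 95% intervals. Filled points passed limma over all genes, which only Elane and Prtn3 did in either genotype, and Lyz2 alone lies above 0.

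These calls rested on few arrays. For fits with arrays left out or covariates added, the share of all genes with an unadjusted p under 0.05 was not counted. Leaving out any single array labelled Fancc-/- other than replicate 1 with TNF gave a count of 0 in that genotype instead of 2 (with 4 to 6 genes at an unadjusted p under 0.05). In those fits Elane stood at -3.71 to -2.67 and Prtn3 at -1.24 to -0.79, and 444 to 592 of all genes were called instead of 784. Leaving out that replicate 1 gave 4, with Mpo at -1.29 (limma adjusted p = 0.0305) and Ms4a3 at -1.45 (limma adjusted p = 0.0393) added. Leaving out TNF-treated wild-type replicate 3 or untreated wild-type replicate 2 or 3 gave 1, as Prtn3 then missed the threshold. In wild type the count was 0 without TNF-treated replicate 2 or 3 or untreated replicate 2 or 3 (3 to 4 genes unadjusted), with Elane at -3.44 to -3.12, Prtn3 at -1.24 to -1.10 and 474 to 677 of all genes called instead of 913. It was 3 without TNF-treated replicate 1 or TNF-treated replicate 2 labelled Fancc-/-, with Ctsg added (limma adjusted p = 0.0398 and 0.0225). The averaged count of 5 was 3 without untreated replicate 2 or 3 of either genotype or TNF-treated wild-type replicate 2 or 3, because Mpo and Ms4a3 then missed the threshold (limma adjusted p = 0.0532 to 0.0773). It was 4 without untreated replicate 1 of either genotype, where Mpo missed it, and without TNF-treated replicate 3 labelled Fancc-/-, where Ms4a3 did, whereas Elane, Prtn3 and Ctsg passed in the average without any single array. With Xist and Eif2s3y as covariates, 2 genes passed in the average, Elane at -3.89 (limma adjusted p = 0.0181) and Prtn3 at -1.26 (limma adjusted p = 0.033), while Ctsg at -0.97, Mpo at -0.85 and Ms4a3 at -1.08 did not, and 1270 of all genes were called instead of 2207. On only the 7 arrays with both signals, which leave 1 untreated array per genotype, 0 passed in limma and 2 had an unadjusted p under 0.05, with Elane at -3.74, Prtn3 at -1.27, Mpo at -0.75, Ctsg at -0.97, Ms4a3 at -1.10 and Lyz2 at 0.11. Over all genes 444 were called in that fit.

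The spread among TNF arrays had the same order in most of these genes. On the arrays labelled Fancc-/-, replicate 2 was lowest for all 6 genes and replicate 1 highest for 5 of them, all but Lyz2, whose highest was replicate 3. In wild type, replicate 1 was highest for the same 5 genes, and replicate 2 was lowest for 5 of 6, with Mpo lowest in replicate 3. Relative to the untreated mean, Elane changed by -2.25, -5.17 and -3.09 on replicates 1, 2 and 3 labelled Fancc-/- and by -1.91, -4.51 and -4.33 in wild type. Relb, a subunit of the alternative NF-kB dimer that TNF induces, varied far less on these arrays, by 3.54, 3.48 and 3.45 on those labelled Fancc-/- and by 3.19, 3.37 and 3.05 in wild type. Nfkbia, the NF-kB inhibitor gene, moved by 1.46 to 1.55 on all 6. On replicate 1 of each genotype, with the smallest falls of Elane, both NF-kB genes rose about as far as on the other TNF arrays. The cause of the spread in Elane was not tested.

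Among 17 later granule and neutrophil genes the order in wild type was mixed. Replicate 1 was highest and replicate 2 lowest for 4 of the 17, among them Padi4 and Anxa1, and replicate 1 was lowest for 8 of the 17. Camp, the cathelicidin gene of secondary granules, changed by -4.56, -2.57 and -1.50 on wild-type replicates 1, 2 and 3, and S100a8 by -3.75, -3.10 and -1.93. Replicate 1, which kept the most Elane, Prtn3, Mpo, Ctsg and Ms4a3 signal, had the least Camp, S100a8 and Ltf signal. On the arrays labelled Fancc-/-, Camp changed by -1.10, -2.65 and -1.20 and S100a8 by -1.50, -2.36 and -1.003, and replicate 2 was lowest for 14 of the 17. These are single arrays, so the orders carry no test.

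**Figure D3:**
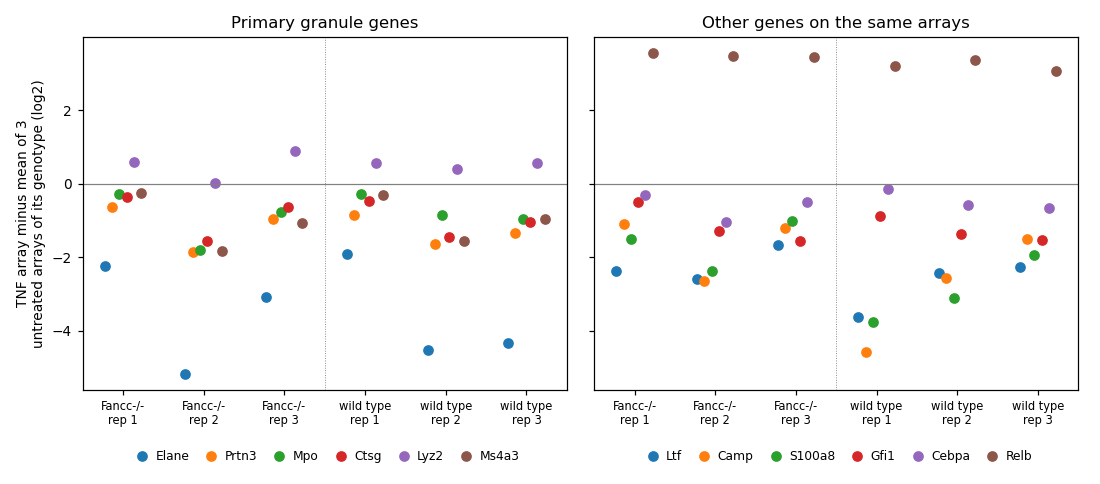
Each TNF array minus the mean of the 3 untreated arrays of its genotype (log2), for the primary granule genes (left) and for later granule genes, transcription factors and the NF-kB gene Relb (right). Wild-type replicate 1 has the smallest falls of Elane and Ms4a3 within its genotype and the largest of Camp and S100a8, while Relb stays between 3.05 and 3.54 on all 6.

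With both TNF-treated replicates 1 left out, the average passed for 5 genes, with Elane at -4.27 and Ms4a3 at -1.35, and the count was 5 on the arrays labelled Fancc-/- and 4 in wild type. With both TNF-treated replicates 2 left out, the average passed for 4 genes, and Elane stood at -2.89, Prtn3 at -0.94, Ctsg at -0.63, Mpo at -0.57 and Ms4a3 at -0.65, the last with limma adjusted p = 0.0554. The counts were then 1 on the arrays labelled Fancc-/- and 3 in wild type.

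The second question of the design was whether the genotypes differed. None of the 6 genes passed between arrays labelled Fancc-/- and wild type, without TNF or with it (limma, 0 of 6 each, 0 of 6 at an unadjusted p under 0.05, against 0.0055% of all genes called at each treatment). Without TNF the means for Fancc-/- and wild type were 12.22 ± 0.35 and 11.84 ± 0.56 for Elane (SD, n = 3 each), 13.42 ± 0.05 and 13.37 ± 0.18 for Prtn3, and 13.63 ± 0.03 and 13.64 ± 0.05 for Mpo. Elane differed there by 0.38 (95% interval -1.33 to 2.08) and Mpo by -0.01 (95% interval -0.69 to 0.66), so a difference of a factor of 2 lay within the interval for Elane. Lyz2 differed by 0.31 (95% interval -0.25 to 0.86). These intervals use 1 spread per gene, shared by all 4 groups. For Elane and Mpo the wider spread of the TNF arrays thus enters the intervals without TNF. The SD of Mpo with TNF was 0.77 on the arrays labelled Fancc-/- and 0.36 in wild type. With TNF the differences were 0.45 for Elane, 0.17 for Prtn3, -0.28 for Mpo, 0.24 for Ctsg, 0.30 for Lyz2 and 0.01 for Ms4a3, all with overlapping arrays. Groups did not overlap for 4.2% of all genes higher and 6.79% lower on the arrays labelled Fancc-/- with TNF, and for 3.82% higher and 4.28% lower without TNF, and for 0 of these 6 genes in either case. The sign of the Elane, Prtn3, Mpo and Ms4a3 differences with TNF turned when single TNF arrays were left out.

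The response to TNF was also compared between genotypes, as the change on arrays labelled Fancc-/- minus that in wild type. None of the 6 genes passed (limma, 0 of 6, 0 at an unadjusted p under 0.05, and 0% of all genes called), and each had limma adjusted p = 1. The difference was 0.08 for Elane (95% interval -2.34 to 2.495), 0.13 for Prtn3 (-0.74 to 0.99), -0.26 for Mpo (-1.22 to 0.69), 0.14 for Ctsg (-0.76 to 1.04), -0.01 for Lyz2 (-0.79 to 0.78) and -0.11 for Ms4a3 (-1.24 to 1.02). A response that differed by a factor of 2 lay within the interval for Elane, Mpo, Ctsg and Ms4a3. The sign for Elane turned on leaving out 8 of the 12 arrays, each in turn.

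**Figure D4:**
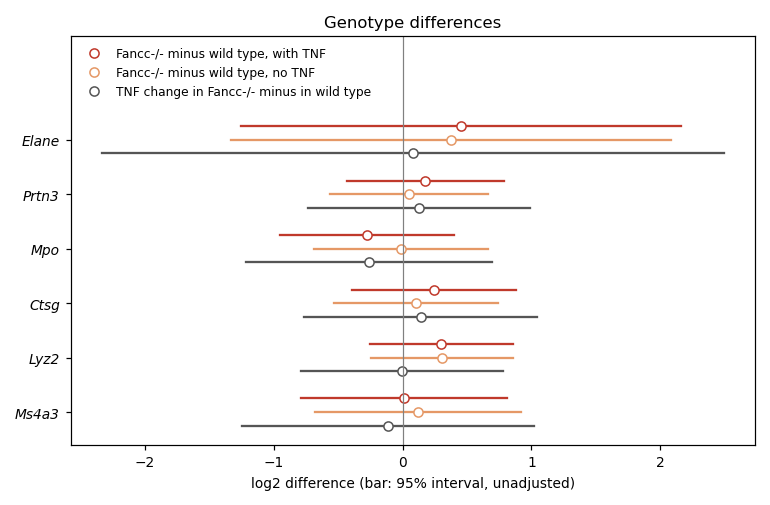
Log2 differences of the primary granule genes between cells labelled Fancc-/- and wild type with TNF (red) and without TNF (orange), and the difference between their TNF responses (grey), with unadjusted 95% intervals. All 18 intervals include 0, and those of Elane are the widest.

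Few other genes of primary granules passed. Of 12 listed constituents and processing genes, 8 were measured, and in the average over genotype 2 fell and 0 rose, against 6.32% and 5.81% of all genes. Gusb, the lysosomal beta-glucuronidase, changed by -0.23 (SE 0.06, limma adjusted p = 0.0353) and Ctsd, the aspartic protease cathepsin D, by -0.25 (SE 0.07, limma adjusted p = 0.0329). Ctsc, whose product activates elastase, proteinase 3 and cathepsin G, did not pass at -0.23 (limma adjusted p = 0.15), and the serglycin gene Srgn, whose proteoglycan packs granule proteases, stood at -0.10 (limma adjusted p = 0.171). The list median was -0.16, and none of the 8 passed in either genotype alone (limma).

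Of 15 listed inhibitors of granule proteases, 9 were measured, and 1 rose and 1 fell in the average, close to the shares of all genes called higher (5.81%) and lower (6.32%). Serpinb6a, an intracellular serpin that inhibits cathepsin G, rose by 0.57 (SE 0.10, limma adjusted p = 0.00261), and it read 8.06 to 8.23 with TNF on the arrays labelled Fancc-/-, against 7.57 to 7.85 without TNF, and 8.43 to 8.60 with TNF in wild type, against 7.495 to 8.04 without TNF. Serpinb1a, which inhibits elastase, proteinase 3 and cathepsin G, fell by 0.33 (SE 0.09, limma adjusted p = 0.0342). The median of the list was -0.02.

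Among 10 of 11 listed transcription factors of the granulocyte path that were measured, 4 fell and 0 rose in the average, with a median of -0.46, where 6.32% of all genes fell and 5.81% rose. Gfi1, a repressor needed for neutrophil development, changed by -1.18 (SE 0.19, limma adjusted p = 0.00195) and passed in both genotypes (-1.11, limma adjusted p = 0.0396, on the arrays labelled Fancc-/- and -1.26, limma adjusted p = 0.0207, in wild type). It read 8.91, 8.10 and 7.85 with TNF on the arrays labelled Fancc-/-, against 9.26, 9.27 and 9.67 without TNF. In wild type Gfi1 read 8.50, 8.02 and 7.87 with TNF, against 9.18, 9.65 and 9.33 without TNF, so no group pair overlapped. Cebpa, which starts the granulocyte and monocyte programme, changed by -0.54 (SE 0.13, limma adjusted p = 0.0229), Cebpd by -0.75 (limma adjusted p = 0.0393) and Klf5 by -0.40 (limma adjusted p = 0.0325). Spi1, which encodes PU.1, stood at 0.01 (SE 0.08, limma adjusted p = 0.969) and Myb at -0.01 (limma adjusted p = 0.953), and neither passed.

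Most later granule and neutrophil genes fell. Of 19 listed, 17 were measured, and in the average 11 fell and 1 rose, against 6.32% and 5.81% of all genes, with a median of -1.39. The collagenase gene Mmp8 changed by -4.92, Chil3 by -4.15, S100a9 by -2.71, Ngp by -2.57, the chemokine receptor gene Cxcr2 by -2.53 and the lactoferrin gene Ltf by -2.49, all past the threshold (limma adjusted p from 1.65e-06 to 0.0436). Hp, haptoglobin, rose by 1.20 (SE 0.30, limma adjusted p = 0.025). Mmp9 (0.22), Itgam (0.10) and Olfm4 (0.10) did not pass. Within a genotype 4 fell and 0 rose on the arrays labelled Fancc-/-, where 1.86% of all genes fell, and 8 fell and 0 rose in wild type, where 2.33% fell.

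**Figure D5:**
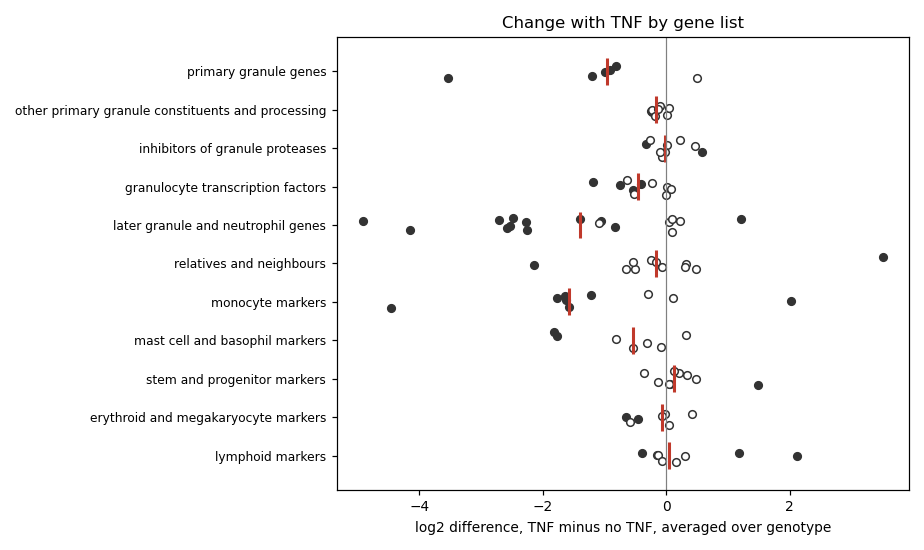
Log2 difference, TNF minus no TNF, averaged over genotype, for each measured gene of the 11 lists, with filled points past limma's threshold over all genes and a red bar at each list's median. The median of the primary granule genes is -0.96, that of later granule genes -1.39 and that of monocyte markers -1.57, while other primary granule constituents, protease inhibitors and stem cell markers lie near 0.

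Of 26 measured genes within 3 places of a primary granule gene on its chromosome, 6 fell and 0 rose in the average, against 6.32% and 5.81% of all genes, and none of the 6 lies by Lyz2. Next to Prtn3 on the side away from Elane lies Plppr3, a phospholipid phosphatase related gene, which changed by -1.06 on the arrays labelled Fancc-/- (limma adjusted p = 0.00773), -1.27 in wild type (limma adjusted p = 0.00252) and -1.17 in the average (SE 0.13, limma adjusted p = 2e-04). The next genes outward on the 2 sides, Ptbp1 (-0.01), Med16 (-0.18) and R3hdm4 (-0.01), did not pass, and Cfd was not analysed here. Beside Mpo, Tspoap1 changed by -1.15 (limma adjusted p = 0.00392), while the related peroxidase genes Lpo (-0.25) and Epx (-0.50) did not pass in the average. Epx differed in sign, at 0.57 on the arrays labelled Fancc-/- (limma adjusted p = 0.576) and -1.57 in wild type (limma adjusted p = 0.0642). Beside Ctsg lies the basophil protease gene Mcpt8, which changed by -1.82 (SE 0.31, limma adjusted p = 0.00299), and the granzyme genes Gzme, Gzmd and Gzmg on the other side read at most 3.82, too dim for a fall to be seen. Of 11 measured relatives of the primary granule genes, 1 rose and 1 fell in the average. The granzyme gene Gzmc, of the same protease family as Ctsg, rose by 3.51 (SE 0.20, limma adjusted p = 1.95e-06). Beside Ms4a3, Ms4a6d (-0.88) and the oocyte genes Oosp2 (-1.001) and Oosp1 (-0.59) fell in the average (limma adjusted p = 0.0421, 0.0311 and 0.0453), and Ms4a2 (-0.55) did not pass. The relative that fell was Ms4a4c, by 2.15 on the log2 scale (limma adjusted p = 0.000236), while Ms4a6b (-0.54), Ms4a6c (-0.66), Ms4a7 (0.48), Ms4a1 (-0.17), Gzmb (0.31) and Cma1 (-0.07) did not pass. These positions are from the RefSeq annotation of GRCm38.p6, and neighbours not given 1 symbol on the array were left out.

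The 8 genes whose profile over the 12 arrays came closest to the mean profile of the 6, each centred on its own mean, were Trem1, Gpc1, Emilin2, Rab44, Dok3, Sgip1, Thbs1 and Bco1. Their root mean square distance ran from 0.169 for Trem1 to 0.248 for Bco1 on the log2 scale. Among the members themselves it was 0.114 for Prtn3, 0.163 for Ctsg, 0.169 for Ms4a3, 0.279 for Mpo, 0.891 for Lyz2 and 1.30 for Elane, so Prtn3 lay nearest the mean, Lyz2 differed by its sign and Elane by its size. Trem1, a receptor of neutrophils and monocytes, changed by -1.07 in the average (limma adjusted p = 0.0136), and the other 7 by -0.90 to -1.28. These genes were picked by likeness to a profile that falls with TNF on the same arrays. Their falls thus follow from the choice and are no separate result.

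Markers of other cell types were called in the same comparison, in which 6.32% of all genes fell and 5.81% rose. Lists of 7 to 9 genes are too short for 1 or 2 calls to be weighed against these shares. Of 9 measured monocyte markers 6 fell and 1 rose in the average, with the mean level of the list between 9.29 and 10.50 with TNF on the arrays labelled Fancc-/-, against 10.70 to 11.22 without TNF, and between 9.27 and 9.56 with TNF in wild type, against 10.46 to 10.99 without TNF. F13a1 (-4.46), Ccr2 (-1.76), Ly86 (-1.64), Fcgr1 (-1.62) and Klf4 (-1.21) were among those that fell. Csf1r and Ctss did not pass in the average. Csf1r stood at 0.13 on the arrays labelled Fancc-/- and 0.07 in wild type, and Ctss at -0.18 and -0.39. Irf8, the monocyte and dendritic cell factor, changed by -1.57 (SE 0.16, limma adjusted p = 0.000101), and Cx3cr1 rose by 2.02 (SE 0.26, limma adjusted p = 0.00056). Of 7 mast cell and basophil markers 2 fell, Mcpt8 and Hdc, while Cpa3, Ms4a2, Fcer1a, Mcpt4 and Gata2 did not pass. Gata2 stood 0.34 higher with TNF on the arrays labelled Fancc-/- and 0.29 higher in wild type. The mean level of this list was 6.91 to 8.01 with TNF on the arrays labelled Fancc-/-, against 7.87 to 8.38 without TNF. In wild type it was 6.89 to 8.09 with TNF, against 8.32 to 8.64 without TNF. Of 9 stem and progenitor markers 1 rose, Procr by 1.48 (SE 0.28, limma adjusted p = 0.00565), and Kit (0.06), Cd34 (0.05) and Flt3 (0.21) did not pass. Of 8 lymphoid markers Rag1 (2.12) and Ebf1 (1.17) rose and Cd79a (-0.40) fell, and of 7 erythroid and megakaryocyte markers Klf1 (-0.65) and Gp1bb (-0.46) fell. The part of these lists in the fall of the primary granule genes was not tested.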

How the data were processed

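For 12 single-colour arrays the authors deposited 1 log2 expression value per probe set, made with RMA per the submitters' processing notes, whose version is not given. The base of the logarithm was inferred from their range, 2.14 to 14.94. RMA equalises array distributions, so a shift of all genes cannot be seen, and very bright and very dim signals may have compressed differences. The number of arrays limits the precision.

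Of 45037 probe sets that are not controls, 34945 had 1 symbol, 932 several and 9160 none listed. A gene was its brightest probe set by mean. limma 3.58.1 in R 4.3.3 fitted 1 mean per group and 1 spread per gene over all arrays. It used 6 contrasts and Benjamini-Hochberg adjustment and was tested on simulated data. Alternatives included a replicate block, other scalings, moderation and probe set rules, array weights (statmod 1.5.0), sex-linked covariates and leaving out each array. Leaving out both TNF-treated replicates 1, or 2, and using only arrays with both sex-linked signals were chosen after seeing the data.

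The 6 members and 11 lists (121 genes, 101 measured) were chosen with earlier results of these data known. Genes named were all members, the lists' members called for TNF averaged over genotype, up to 6 per direction, some fixed names and the 8 nearest profiles. Neighbours, Relb, Nfkbia, Camp, S100a8 and genes named as not passing were added after values were seen. Same-numbered arrays were not treated as pairs, since only 7 of 18 correlations of their deviations exceeded 0.1. However, 10 of 12 arrays correlated best with an array of their own number, so shared handling by number remains possible.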

Additional observations from a re-analysis of the deposited data

How the results depend on the processing

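In the 3 TNF contrasts, 0 of 444 values of single genes under the alternatives changed sign. The count of genes passing ran from 0 to 4 on the arrays labelled Fancc-/-, 0 to 3 in wild type and 3 to 6 in the average when single arrays were left out. Against 2 in each genotype and 5 in the average, the counts were 0, 0 and 2 with the Xist and Eif2s3y covariates and 0, 0 and 0 on only the 7 arrays with both signals (limma; 5, 3 and 5, and 1, 0 and 2, at an unadjusted p under 0.05), where 452, 410 and 1270, and 59, 39 and 444, of all genes were called instead of 784, 913 and 2207. They were 1 and 1 when only the groups compared were fitted, 5 and 4 without both TNF-treated replicates 1, and 1 on the arrays labelled Fancc-/- with all probe sets tested or without both TNF-treated replicates 2. The other settings kept each count within a factor of 1.5. The cause of these moves was not tested, beyond the smaller number of arrays or residual degrees of freedom that leaving out arrays and adding covariates bring. The replicate block gave 2, 2 and 6, with Lyz2 passing at 0.505 (limma adjusted p = 0.0387), and 10 of 12 arrays correlated best with an array of their own number, a hint from the data and not from the design.

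For the genotype contrasts and the interaction, 0 of 74 alternative counts held a call in limma, and at most 3 genes had an unadjusted p under 0.05. Signs near 0 turned in these cases. Prtn3 without TNF was -0.025 with array weights and -0.052 to 0.11 with single arrays left out, and Mpo without TNF was 0.058 with centred arrays, 0.022 with the covariates and -0.04 to 0.012 with arrays left out. With TNF, leaving out single arrays gave -0.173 to 1.292 for Elane, -0.089 to 0.53 for Prtn3, -0.612 to 0.145 for Mpo and -0.384 to 0.396 for Ms4a3. Mpo with TNF was 0.07 without both TNF-treated replicates 2, and Ms4a3 with TNF was -0.009 with the covariates and -0.064 without both TNF-treated replicates 1. The interaction ran from -0.548 to 0.917 for Elane, -0.139 to 0.481 for Prtn3, -0.598 to 0.159 for Mpo, -0.103 to 0.487 for Ctsg, -0.201 to 0.231 for Lyz2 and -0.505 to 0.275 for Ms4a3 with single arrays left out. For Elane it was -0.261 with the covariates and -0.339 on the 7 arrays with both signals. Without both TNF-treated replicates 2 it was 0.084 for Mpo and 0.174 for Lyz2, and with array weights 0.272 for Lyz2 and 0.032 for Ms4a3. The cause was not tested.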
